A study of Mus musculus with 6 samples.

Results

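Polycomb repressive complex 2 (PRC2) was followed through its subunits in mouse germ cells grown in culture with little of the RNA-binding protein DAZL. The subunits were the genes Ezh1, Ezh2, Eed, Jarid2, Mtf2, Phf1, Phf19, Rbbp4, Rbbp7 and Aebp2, taken by name, and by the older symbol of the same RefSeq transcript, from the annotation of the arrays. They were 10 of 27677 gene names and had 19 of 41174 probes. The study used male Oct4-GFP embryonic stem (ES) cells of mixed C57BL/6 and 129SV background, which carried a short hairpin vector against Dazl or a control vector, each with a tdTomato marker. The cells were depleted of feeder cells, differentiated for 12 or 9 days and sorted for green and red fluorescence, and total RNA of 6 samples was hybridised to 1-colour Agilent whole-genome arrays. At each of the 2 days there was 1 sample with hairpin 2, 1 sample with hairpin 1 and 1 control sample. Thus 4 knockdown arrays stood against 2 control arrays. The hairpin numbers are those of the sample titles, and the names under which the scans were deposited number the hairpins differently. All of them came from stem cells in culture and not from embryos, and the control vector was measured in 1 sample per day. What the control vector targets, and whether the samples came from separate cultures, was not given in the labels, so a p-value here speaks of the spread between 6 samples, which may be technical.

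PRC2 places methyl groups on lysine 27 of histone H3, a mark of genes that are kept silent through development. EZH2 or its paralog EZH1 is the catalytic subunit, and it works only together with EED, which binds the finished mark, SUZ12, which holds the complex together, and a histone-binding protein, RBBP4 or RBBP7. Accessory proteins direct the complex to its sites in alternative assemblies, with PHF1, MTF2 or PHF19 in one and JARID2 with AEBP2 in the other. In embryonic stem cells PRC2 lies at the genes of developmental regulators, and primordial germ cells gain this histone mark across the genome as they lose DNA methylation.

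Signals are given as log2 of the processed spot signal after the 75th percentile of each array was set to 0, so a difference of 1 is 2-fold. That percentile lay between 636 and 746 signal units on the knockdown arrays and between 629 and 700 on the control arrays, and 70.3% to 73.3% of the probes were well above background per array. Dazl itself, on its brighter probe, had signals of 178 and 145 with hairpins 2 and 1 on day 12 and 154 and 79.3 on day 9, against 4190 and 1570 in the controls of days 12 and 9. Its log2 difference was -4.30 (SE 0.28, limma adjusted p = 0.0864), and a replicate block for the vector put it past the threshold (adjusted p = 0.0103). Of 12 listed germ cell markers 11 were measured, which needed a probe well above background on 2 or more arrays. These 11, among them Pou5f1, Dppa3, Prdm1 and Ddx4, were well above background on every array. Across 20227 genes, any pair of arrays had a Pearson's r of 0.98 to 0.99. The hairpin 2 array of day 9 stood apart: 10.4% of all genes lay there more than 0.5 log2 units outside the range of the other 5 arrays, against 1.1% to 2.36% for any other array.

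All 10 subunit genes were measured, with a brightest probe that was well above background on all 6 arrays. In the knockdown, 8 of the 10 were lower and Ezh1 and Mtf2 were higher, by a median log2 difference of -0.10, where all 20227 genes had a median of -0.00 and 50.3% were lower. Differences ranged from -0.57 for Rbbp7 to 0.25 for Ezh1, and none of the 10 reached 2-fold. No subunit passed an adjusted p under 0.05 (limma, Benjamini-Hochberg over all genes), nor did any gene on the array (0%). At an unadjusted p under 0.05, Phf19 and Rbbp7 were lower and no subunit was higher, against 4.85% of all genes lower and 5.11% higher. With the vector as a replicate block across the days, 20 genes passed and none of them was a subunit.

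Below the threshold the subunits, each read by its brightest probe, did not all run the same way. Ezh2, Phf19, Rbbp4, Rbbp7 and Aebp2 were lower than the same-day control on each of the 4 knockdown arrays, which held for 17.1% of all genes, and no subunit was higher on each, against 16.3%. For the first 4 of these genes all 4 knockdown arrays lay below both control arrays, as 10.3% of all genes did, and no subunit lay above both on all 4, against 9.47%. Eed, Jarid2 and Mtf2 lay above both controls on 3 of the knockdown arrays and below both on the hairpin 2 array of day 9. Both counts were the same, 5 and 4, when that array was left out, against backgrounds of 26.7% and 15.8%. The count of subunits higher in every pair was then 3 (Eed, Jarid2 and Mtf2), near the background of 27.1%. This repeat was chosen after seeing the data. The count of subunits with a lower log2 difference, 8 with all arrays, was 6 without the hairpin 2 array or without the control array of day 9, and 8 or 9 when any other array was left out. Rbbp4 stands in these counts by its brightest probe, and another of its probes ran the other way. Jarid2 and Mtf2 depend on the probe as well. The dimmer Jarid2 probe lay below both controls on all 4 knockdown arrays. The Mtf2 probes A_51_P264995 and A_52_P627306 were lower in all 4 pairs, and A_52_P106805 in 2. On the same arrays 17 of 21 genes of S and G2/M phase and 8 of 11 germ cell markers also had lower means in the knockdown. Those 8 include Dazl, the target of the hairpins. The part of these lists in the counts was not tested.

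**Figure D1:**
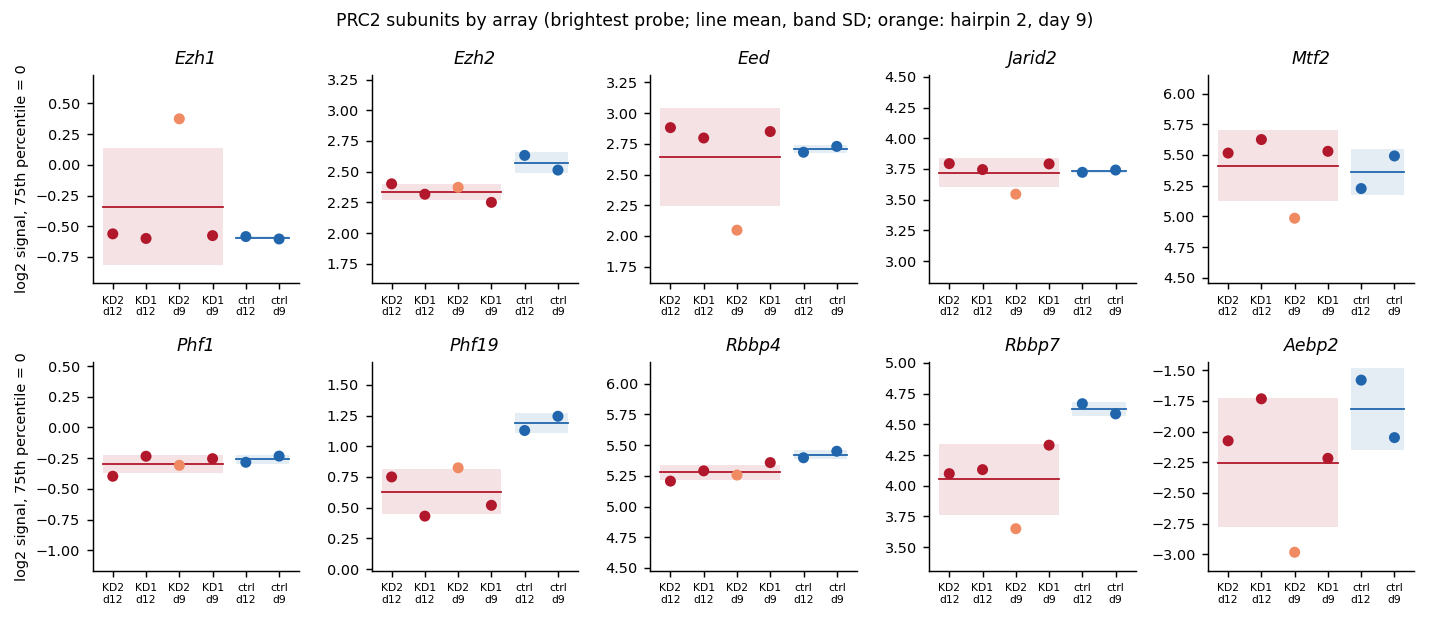
Log2 signal of the brightest probe of each PRC2 subunit, relative to the array's 75th percentile, on the 6 arrays (KD2 and KD1, hairpins 2 and 1; ctrl, control; d12 and d9, days 12 and 9); lines are means and bands SDs of the 4 knockdown and the 2 control arrays, and every panel spans the same log2 range. The knockdown points of Ezh2, Phf19, Rbbp4 and Rbbp7 lie below both control points, and the orange point, hairpin 2 at day 9, is the highest of the 6 for Ezh1 and the lowest for Eed, Jarid2, Mtf2, Rbbp7 and Aebp2.

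The promoters of Ezh2, Phf19, Rbbp4 and Rbbp7 are shown because these genes lay below both controls on all 4 knockdown arrays; those of Suz12, the core subunit outside the 10, and of Phf1, which stayed close to its control values, are set beside them. Each window holds the 250 bases before a RefSeq transcript start (GRCm38.p6), in the direction of transcription. Capitals mark matches, on either strand, to the E2F words TTTCCCGC and TTTGGCGC or to the CCAAT box, CCAAT; the CHR word TTTGAA was also searched and is left in lower case.
Ezh2, chr6:47595031-47595280, minus strand: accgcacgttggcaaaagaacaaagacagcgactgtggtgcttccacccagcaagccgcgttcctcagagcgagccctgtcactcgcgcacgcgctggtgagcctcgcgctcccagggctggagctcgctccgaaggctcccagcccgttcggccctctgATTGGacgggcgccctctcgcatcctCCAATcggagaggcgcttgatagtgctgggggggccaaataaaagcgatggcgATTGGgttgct
Phf19, chr2:34913977-34914226, minus strand: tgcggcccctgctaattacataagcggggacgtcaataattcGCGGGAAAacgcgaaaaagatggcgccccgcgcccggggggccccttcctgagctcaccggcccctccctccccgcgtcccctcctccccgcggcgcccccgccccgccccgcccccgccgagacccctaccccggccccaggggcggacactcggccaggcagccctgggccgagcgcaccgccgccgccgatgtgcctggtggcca
Rbbp4, chr4:129335371-129335620, minus strand: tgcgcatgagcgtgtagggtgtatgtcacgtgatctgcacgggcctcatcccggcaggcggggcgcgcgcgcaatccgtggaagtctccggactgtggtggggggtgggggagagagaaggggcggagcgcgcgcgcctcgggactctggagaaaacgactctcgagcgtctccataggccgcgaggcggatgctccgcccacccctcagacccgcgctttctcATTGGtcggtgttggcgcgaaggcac
Rbbp7, chrX:162760122-162760371, plus strand: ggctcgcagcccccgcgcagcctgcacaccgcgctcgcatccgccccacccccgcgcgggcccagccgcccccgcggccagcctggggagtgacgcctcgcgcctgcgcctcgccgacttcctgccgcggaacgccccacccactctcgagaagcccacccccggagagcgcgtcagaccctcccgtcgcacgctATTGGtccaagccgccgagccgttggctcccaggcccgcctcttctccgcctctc
Suz12, chr11:79992856-79993105, plus strand: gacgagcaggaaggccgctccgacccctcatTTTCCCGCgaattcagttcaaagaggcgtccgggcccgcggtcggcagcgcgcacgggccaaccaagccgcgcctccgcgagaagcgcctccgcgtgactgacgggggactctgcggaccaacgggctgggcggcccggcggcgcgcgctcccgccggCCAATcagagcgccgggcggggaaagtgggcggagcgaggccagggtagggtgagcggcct
Phf1, chr17:26932877-26933126, plus strand: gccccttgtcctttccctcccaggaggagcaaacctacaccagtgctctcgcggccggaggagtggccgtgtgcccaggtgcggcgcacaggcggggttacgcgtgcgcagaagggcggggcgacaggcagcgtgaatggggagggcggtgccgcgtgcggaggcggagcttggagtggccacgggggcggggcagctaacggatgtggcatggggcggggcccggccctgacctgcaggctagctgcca

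Across the 14 RefSeq windows of the 10 subunits, which cover every one of them, 1 window held an E2F word, 6 a CCAAT box and 3 the CHR word. Among all 32851 windows of the same length the shares were 1.30%, 33.8% and 16%. The E2F word was that of Phf19, 208 bases before the transcript start used, and Suz12 had one 219 bases before its start. The annotated Phf19 and Ezh2 genes, on the minus strand, reach to positions 34914353 and 47595270. The Phf19 window and most of the Ezh2 window thus lie inside the annotated gene. Ezh2 had 3 CCAAT boxes, at 90, 64 and 11 bases, and the Rbbp4 and Rbbp7 windows had 1 each, at 26 and 55 bases. The windows of the subunits held a median of 22.5 CpG dinucleotides, against 6 in all windows. The Phf1 window held none of the words. These matches describe the letters only, and binding was not measured.

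The catalytic subunits differed in how evenly the knockdown arrays lay. Ezh2 (NM_007971, chromosome 6) had log2 signals of 2.40 and 2.32 with hairpins 2 and 1 on day 12 and 2.37 and 2.25 on day 9, against 2.63 and 2.51 in the controls of days 12 and 9. All 4 knockdown arrays were below both controls, at 80.3% to 90.7% of the control of the same day. Knockdown arrays averaged 2.33 ± 0.07 (SD, n = 4) and control arrays 2.57 ± 0.08 (SD, n = 2). The log2 difference of -0.24 (SE 0.13) did not pass (limma adjusted p = 0.614). Leaving out each array in turn gave -0.27 to -0.20, so the size of this small difference did not rest on a single array.

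Ezh1 (NM_007970, chromosome 11), the paralog that prevails in cells that no longer divide, had -0.56 and -0.60 with hairpins 2 and 1 on day 12 and 0.38 and -0.58 on day 9, against -0.58 and -0.60 in the controls. It lay within 0.04 log2 units on 5 of the arrays and was 197% of the control on the hairpin 2 array of day 9. Its log2 difference of 0.25 (SE 0.29, limma adjusted p = 0.821) became 0.01 without that array. Ezh1 has 1 probe, so no other probe of the gene bears on this reading.

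Among the partners in the core, Rbbp7 (NM_009031, chromosome X) had the largest difference of the 10 subunits. RBBP7 is a WD-repeat protein that grips histone H4 and serves several chromatin complexes besides PRC2. Its log2 signals were 4.10 and 4.13 with hairpins 2 and 1 on day 12 and 3.65 and 4.33 on day 9, against 4.67 and 4.59 in the controls of days 12 and 9. Every knockdown array was below both controls, by the most with hairpin 2 at day 9, where 52.3% of the control signal was left, and by the least with hairpin 1 at day 9, where 83.8% was left. Knockdown arrays averaged 4.05 ± 0.29 (SD, n = 4) and control arrays 4.63 ± 0.06 (SD, n = 2). The log2 difference was -0.57 (SE 0.21), with an unadjusted p of 0.0357 and an adjusted p of 0.459 (limma), and it was -0.43 without the hairpin 2 array of day 9. In bulk RNA, fewer cells of a type that expresses a gene and less RNA per cell cannot be told apart.

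Rbbp4 (NM_009030, chromosome 4), the close paralog of Rbbp7, was read by 4 probes that did not run together. On the brightest, A_51_P307325, the signals were 5.21 and 5.29 with hairpins 2 and 1 on day 12 and 5.26 and 5.36 on day 9, against 5.40 and 5.45 in the controls. These are 87.4% to 93.8% of the control, and the log2 difference of -0.15 (SE 0.13, limma adjusted p = 0.756) was about as large as its error. On A_52_P424767, of the same transcript, the knockdown arrays stood at 124% to 162% of the control, above both controls on all 4, higher by 0.52 on the log2 scale (SE 0.16, limma adjusted p = 0.405 over all probes). A_52_P296810 was lower in 3 of 4 pairs and A_52_P382731, on the cDNA AK140625, also in 3 of 4. With the mean of the 4 probes the difference was 0.00, so the direction for Rbbp4 depends on the probe. That mean weighs the probes alike, though their brightness differed widely. Unscaled signals were 23500 to 29500 on A_51_P307325 and 1830 to 2660 on A_52_P296810. They were 428 to 823 on A_52_P424767 and 21.1 to 36 on A_52_P382731.

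Eed (NM_021876, chromosome 7) had 2.88 and 2.80 with hairpins 2 and 1 on day 12 and 2.05 and 2.85 on day 9, against 2.68 and 2.73 in the controls. Of these, 3 were at 108% to 115% of the control, and hairpin 2 at day 9 was at 62.3%. The log2 difference of -0.06 (SE 0.25, limma adjusted p = 0.966) turned to 0.14 without that array and to 0.16 without the control of day 9. Direction was thus not settled for Eed.

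Suz12, not among the 10 but needed for a complete core, and an mRNA that has been described as a DAZL target, had 3.0 and 2.74 with hairpins 2 and 1 on day 12 and 2.77 and 2.95 on day 9, against 3.31 and 3.51 in the controls. Its other probe, A_52_P302203, had -0.96, -1.07, -1.05 and -0.72 on the same 4 arrays, against -0.20 and -0.09 in the controls. On both probes every knockdown array was below both controls, at 60.0% to 80.6% of the control on the brighter probe. The log2 difference was -0.54 (SE 0.15), with an unadjusted p of 0.0125 and an adjusted p of 0.369 (limma). Leave-one-out values ran from -0.65 to -0.44.

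Of the Polycomb-like proteins, which bind CpG-rich DNA and define one of the alternative assemblies, Phf19 (NM_028716, chromosome 2) was lower. It had 0.75 and 0.43 with hairpins 2 and 1 on day 12 and 0.82 and 0.52 on day 9, against 1.13 and 1.24 in the controls of days 12 and 9. All 4 knockdown arrays lay below both controls, at 76.9% and 61.7% of the control at day 12 and 74.7% and 60.5% at day 9, with hairpin 1 the lower of the pair at both days. Knockdown arrays averaged 0.63 ± 0.19 (SD, n = 4) and control arrays 1.19 ± 0.08 (SD, n = 2). The log2 difference was -0.56 (SE 0.17), which had the smallest unadjusted p of the 10 subunits, 0.0164, and an adjusted p of 0.390 (limma). Over the alternatives the adjusted p was 0.195 to 0.999, the lowest with the replicate block, and leave-one-out values were -0.63 to -0.49. The hairpin 2 array of day 9 was inside the range of the others for this gene.

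Mtf2 (NM_013827, chromosome 5), which brings PRC2 to CpG islands in embryonic stem cells, was read by 4 probes, all well above background. The brightest, A_51_P261001, had 5.52 and 5.63 with hairpins 2 and 1 on day 12 and 4.98 and 5.53 on day 9, against 5.23 and 5.49 in the controls. The groups overlapped, and the log2 difference of 0.05 (SE 0.22, limma adjusted p = 0.965) was -0.15 with the mean of the probes, 0.21 without the hairpin 2 array of day 9 and -0.23 without the control of day 12. It was also below 0 without either hairpin 1 array, at -0.02 for day 9 and -0.01 for day 12. The other probes had differences of -0.27, -0.17 and -0.22, none of which passed. What the 4 probes shared was the hairpin 2 array of day 9, at 59.1% to 70.4% of the control on all of them.

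Phf1 (NM_009343, chromosome 17) was the most even of the Polycomb-like genes, with -0.40 and -0.23 with hairpins 2 and 1 on day 12 and -0.31 and -0.25 on day 9, against -0.28 and -0.23 in the controls. Its log2 difference was -0.04 (SE 0.13, limma adjusted p = 0.957). The knockdown and control arrays overlapped.

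The other assembly holds JARID2, a member of the Jumonji family without demethylase activity, and AEBP2, a zinc finger protein. Jarid2 (NM_021878, chromosome 13) had 3.79 and 3.74 with hairpins 2 and 1 on day 12 and 3.54 and 3.79 on day 9, against 3.72 and 3.74 in the controls, on its brighter probe A_52_P370203. The log2 difference was -0.01 (SE 0.14, limma adjusted p = 0.987), and 0.05 without the hairpin 2 array or without the control array of day 9. The dimmer probe A_51_P264073 had 0.43, 0.35, 0.33 and 0.31 on the same 4 arrays, against 0.63 and 0.63. These values lay below both controls on all 4 arrays, with -0.27 (SE 0.13, limma adjusted p = 0.574 over all probes). A probe on the cDNA AK044888, A_52_P244712, was well above background on 1 array only and was not tested.

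Aebp2 (NM_001005605, chromosome 6) was low and uneven. Probe A_52_P59422 had -2.08 and -1.73 with hairpins 2 and 1 on day 12 and -2.98 and -2.22 on day 9, against -1.58 and -2.05 in the controls of days 12 and 9. Each knockdown array was below the control of its own day, at 71.0% and 90.0% at day 12 and 52.3% and 88.9% at day 9, but the groups overlapped across days. Probe A_52_P23212, of the transcript NM_009637, ran the same way, at 35.7% to 88.5% of the control. The log2 difference of -0.44 (SE 0.25, limma adjusted p = 0.622) was -0.26 without the hairpin 2 array of day 9 and -0.17 with normexp background correction.

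**Figure D2:**
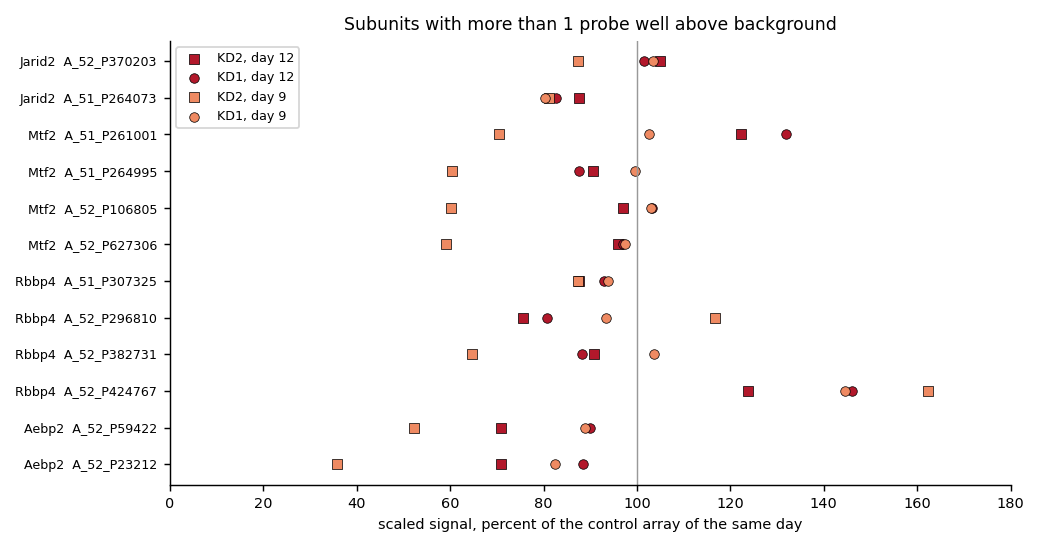
Scaled signal of each knockdown array as a percent of the control array of the same day, for the 12 probes of the 4 subunits with more than 1 probe well above background; squares are hairpin 2, circles hairpin 1, dark symbols day 12 and light symbols day 9. The Rbbp4 probe A_52_P424767 lies at 124% to 162% while A_51_P307325 of the same gene lies at 87.4% to 93.8%, and all 4 Mtf2 probes have their lowest value with hairpin 2 at day 9.

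The hairpin 2 array of day 9 bears on many of these values. On it, Eed and Aebp2 were 0.63 and 0.76 log2 units below the lowest of the other 5 arrays and Ezh1 was 0.94 units above the highest. Such a gap of over 0.5 units was found there for 3 of 10 subunits and for 10.4% of all genes. The array had the lowest value of the 6 for 5 subunits, against 29.2% of all genes, and the highest for 1, against 26.1%. By Dixon's ratio, the gap to the nearest value over the range, this array was apart from the other knockdown arrays for Ezh1 and Eed, 2 of 10 subunits, where 9.07% of all genes had such an array. The other Mtf2 probes lay 0.71 to 0.73 units below the other arrays and the brightest Mtf2 probe 0.24 below, while Ezh2, Phf1, Phf19 and the brightest Rbbp4 probe were inside the range.

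**Figure D3:**
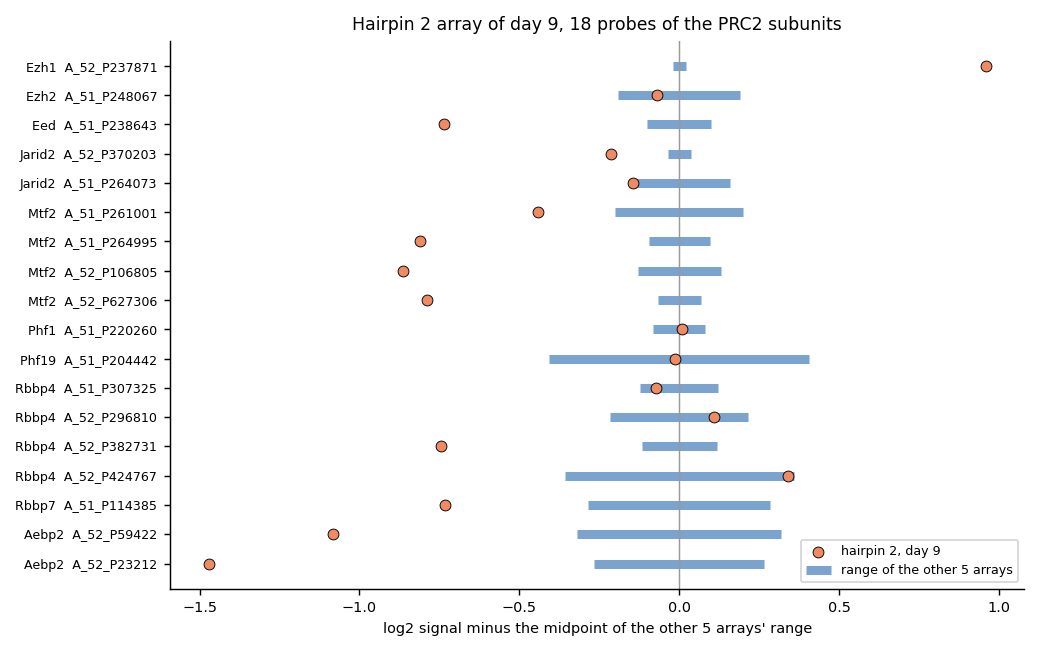
Log2 signal of the hairpin 2 array of day 9 (points) against the range of the other 5 arrays (bars, centred on their midpoint) for the 18 subunit probes that were well above background on at least 2 arrays. Ezh1 lies 0.94 above that range, and Eed, Aebp2, 3 of the 4 Mtf2 probes and the Rbbp4 probe A_52_P382731 lie more than 0.5 below it.

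Whether the knockdown differences were the same at both days was tested by the interaction of day and vector class. No subunit passed, and no gene did (0%); at an unadjusted p under 0.05, where 0.816% of all genes had a lower and 0.915% a higher knockdown difference at day 12, there was no subunit either. The smallest unadjusted p of a subunit was 0.234, for Mtf2, whose knockdown difference was larger by 0.58 (SE 0.43) at day 12 than at day 9. The difference of the differences was 0.03 for Phf19 (SE 0.39) and 0.04 for Rbbp7 (SE 0.48). With 1 control array per day, errors of this size limit what the test can detect.

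Between day 12 and day 9 the subunits differed little. Of the 10, 6 were higher and 4 lower at day 12, with a median of 0.07, against 0.00 for all genes. Without the hairpin 2 array of day 9, 3 were higher and 7 lower, with a median of -0.02. None was among the 30 genes that passed (0.148%), nor among the 328 that passed with the replicate block. Aebp2 alone was higher at an unadjusted p under 0.05, with 7.28% of all genes, and no subunit was lower, with 4.77%. Its mean was -1.80 ± 0.25 (SD, n = 3) at day 12 and -2.42 ± 0.50 (SD, n = 3) at day 9. It was higher at day 12 with all 3 vectors, a log2 difference of 0.62 (SE 0.24) with an unadjusted p of 0.0389 and a limma adjusted p of 0.377. Without the hairpin 2 array of day 9 it was 0.38.

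Ezh2 was also higher at day 12 with all 3 vectors, by 0.07 (SE 0.12), while Phf19 and Rbbp4 were lower with all 3, by -0.09 (SE 0.16) and -0.06 (SE 0.12). Of all genes, 20.6% were higher with all 3 vectors and 19.6% lower, so these counts, 2 and 2 of 10, are near the background. For no subunit did the 3 arrays of day 12 lie all above or all below those of day 9, as for 8.96% and 8.13% of all genes. Eed had a difference of 0.24 and Ezh1 one of -0.31, which became -0.03 and 0.01 without the hairpin 2 array of day 9. Jarid2, Mtf2 and Rbbp7 also changed sign without it, from small differences of 0.06, 0.12 and 0.11. Every array of a day was on the same slide and scan, and a difference between days cannot be told apart from one between slides.

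The hairpins were set against each other to see how far a subunit depended on the vector. Hairpin 2 cells had lower values than hairpin 1 cells for 7 of 10 subunits, with a median of -0.10, and none was among the 14 genes that passed (0.0692%). Without the hairpin 2 array of day 9, 5 were lower and 5 higher, with a median of 0.00. At both days Mtf2, Phf1, Rbbp4, Rbbp7 and Aebp2 were lower and Ezh1, Ezh2 and Phf19 higher with hairpin 2, against 26.6% and 32.2% of all genes. Aebp2 was lower by the most, with a log2 difference of -0.55 (SE 0.19), an unadjusted p of 0.0270 and a limma adjusted p of 0.353. Without the hairpin 2 array of day 9 the difference was -0.34. At an unadjusted p under 0.05 Aebp2 was the 1 subunit lower, with 5.42% of all genes, and no subunit was higher, with 6.24%.

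Phf19 was 0.31 higher (SE 0.16) with hairpin 2, and 0.33 without that array, so the hairpin with less Phf19 at both days was hairpin 1. Rbbp7 had -0.36 (SE 0.21), which became -0.10, Mtf2 had -0.33 (SE 0.23), which became -0.02, and Ezh1 had 0.49 (SE 0.27), which became 0.03. Eed had -0.36 (SE 0.26), which turned to 0.08. Each vector had a fixed place on its slide (4 for hairpin 2, 3 for hairpin 1, 2 for the control), from which it cannot be told apart. All 10 fibroblast markers were higher with hairpin 2, with a median of 0.84, and their part in these differences was not tested.

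**Figure D4:**
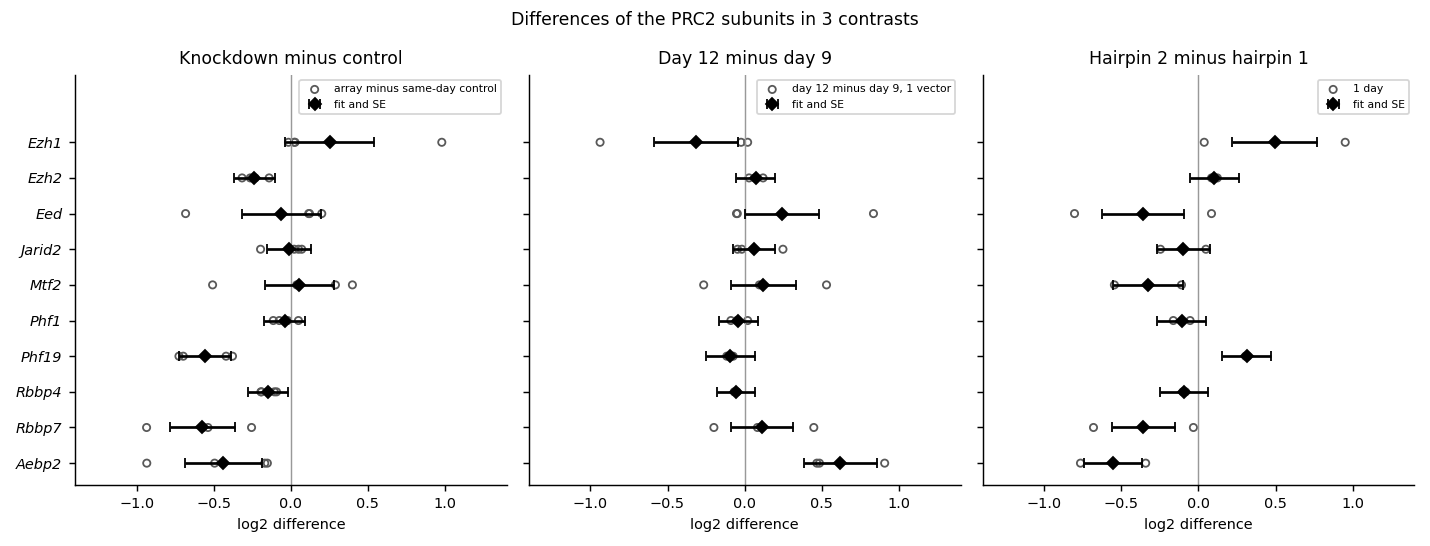
Log2 differences of the PRC2 subunits for knockdown minus control, day 12 minus day 9 and hairpin 2 minus hairpin 1. Diamonds with bars are the limma estimate and its SE, and open circles the single differences behind it (each knockdown array minus its control, each vector between days, each day between hairpins); Phf19 and Rbbp7 lie to the left in the knockdown panel, and Aebp2 is the member farthest from 0 in both other panels.

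The genes around PRC2 were described from lists chosen with earlier results of these data known. In the knockdown, 11 of 21 measured genes of Polycomb repressive complex 1, which reads the PRC2 mark and ubiquitinates histone H2A, were higher and 10 lower, with a median of 0.01. None passed. Among the larger differences were Phc1 at 0.57 (SE 0.14), Phc2 at -0.45 (SE 0.22) and Pcgf5 at -0.37 (SE 0.14). Phc1, a polyhomeotic scaffold, was higher in all 4 pairs, and Phc2, its paralog, and Pcgf5 were lower in all 4. Of the demethylases that remove the mark, Kdm6b had 0.21 (SE 0.13), higher in all 4 pairs, and Kdm6a -0.07 (SE 0.24). The 12 trithorax and COMPASS genes, which place the opposing mark on lysine 4, had a median of -0.03 with 7 lower. Setd1b, a lysine 4 methyltransferase, had the largest difference at -0.32 (SE 0.16). It was followed by Kmt2d (-0.19, SE 0.21), Ncoa6 (-0.18, SE 0.22) and Ash2l (0.18, SE 0.17). Kmt2d and Ncoa6 were at 65.8% and 61.9% of the control on the hairpin 2 array of day 9. On the other knockdown arrays they were at 86.9% to 102%.

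RBBP4 and RBBP7 also belong to the NuRD and Sin3 deacetylase complexes, and one or the other to the chromatin assembly factor CAF-1 and the HAT1 acetyltransferase. Of 18 measured partners from these complexes, 12 were lower and 6 higher, with a median of -0.03, and none passed. The largest differences were Chd4 (-0.47, SE 0.21), a NuRD remodeller, Hat1 (-0.41, SE 0.17), Chaf1b (-0.39, SE 0.17), a CAF-1 subunit, and Hdac2 (-0.36, SE 0.39). The first 3 of these were lower in all 4 pairs. Hdac2 was at 38.4% of the control on the hairpin 2 array of day 9 and at 96.2% to 102% on the other knockdown arrays. Of the remaining PRC2 cofactors Epop had 0.00 (SE 0.13), Lcor -0.00 (SE 0.26) and Lcorl 0.08 (SE 0.19).

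No gene of these lists passed between day 12 and day 9 either. Cbx7, Cbx6 and L3mbtl2, genes of PRC1, had -0.40 (SE 0.18), -0.38 (SE 0.20) and -0.38 (SE 0.31). Hdac2 and Chaf1b had 0.63 (SE 0.36) and 0.41 (SE 0.16), and Mta3 and Sap30 -0.27 (SE 0.14) and 0.20 (SE 0.36). Kmt2c had 0.39 (SE 0.35), Men1 -0.34 (SE 0.22), Rbbp5 -0.31 (SE 0.16) and Ncoa6 0.26 (SE 0.20). Kdm6a and Kdm6b had 0.23 (SE 0.23) and 0.06 (SE 0.12). Lcorl had -0.49 (SE 0.18), Epop 0.21 (SE 0.12), Lcor 0.16 (SE 0.24) and Suz12 -0.06 (SE 0.15). Most of these differences were within 2 SE of 0. Several were large with hairpin 2 only, whose day 9 array stood apart. By hairpin 2, hairpin 1 and control, Hdac2 had 1.58, 0.15 and 0.16, and Kmt2c 1.15, -0.03 and 0.06. In the same order L3mbtl2 had -1.06, -0.17 and 0.09, Men1 -0.91, -0.18 and 0.07, and Sap30 1.06, -0.18 and -0.27. Cbx7 and Cbx6 had their largest differences with the control vector, -0.82 and -0.84.

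Marker lists were read for cell cycle and for other cell types that the sort could hold. Of 21 measured genes of S and G2/M phase, 17 were lower, with a median of -0.09, among them Ccne2 at -0.91 (SE 0.70) and the replication helicase genes Mcm6 and Mcm3 at -0.36 each (SE 0.14). Their summed signal was 361885 to 407715 on knockdown arrays and 404828 to 426259 on control arrays. The endoderm list had 8 of its 9 measured genes higher and a median of 0.92. Their unscaled sums were 1629 to 2142 on knockdown and 983 to 1050.4 on control arrays. Their scaled mean log2 signals were -3.17 to -2.62 and -4.10 to -3.99. Of 10 fibroblast and mesenchyme markers 9 were higher, with a median of 0.79. Their unscaled sums were 18781 to 31451 on knockdown and 18325 to 20767 on control arrays. Their scaled mean log2 signals were -1.55 to -0.46 and -2.25 to -1.90. Cer1 and Lox were not well above background on either control array. Blood and endothelial markers, 4 of 6 of them higher, had unscaled sums of 621 to 1195 on knockdown and 697 to 1037 on control arrays. Their scaled mean log2 signals were -4.03 to -3.64 and -3.83 to -3.72. Germ cell markers other than Dazl were not uniformly lower: 8 of 11, Dazl included, were lower. Their unscaled sums were 46813 to 60887 on knockdown and 49487 to 52321.5 on control arrays. Their scaled mean log2 signals, Dazl included, were 1.27 to 1.46 and 1.74 to 1.81. Dazl, with a log2 difference of -4.30, weighs on these means, while the median difference of the 11 markers was -0.10. The 3 higher markers were Pou5f1 (0.70, SE 0.15), Nanog (0.38, SE 0.30) and Nanos3 (0.17, SE 0.31), and Pou5f1 was higher in all 4 pairs. No gene of these lists passed in the knockdown contrast, and the part of any of them in the differences of the subunits was not tested.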

How the data were processed

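The 6 arrays were read from their scanner files. Per the file headers, these held spot intensity values that Agilent Feature Extraction had detrended and background-subtracted, with a surrogate value for dim spots and no normalization between arrays. The authors' deposited processed table held, per spot, a ratio of the background-subtracted signal to a constant of its array. Each column had a median of 1. All 41529 entries matched 1 spot each. The ratio was checked only where the background-subtracted signal exceeded a low limit, and there it held within the tolerance used. For dimmer entries it was not checked. Scale and direction of that table are therefore known for the checked entries, and its centring from the column median. A deposited quality score per spot, whose making is not given in the sources used here, served only for this match. The labels name no other step of the authors.

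Signals entered as log2 after subtraction of the array's 75th percentile. Control spots and outlier flags, at most 18 per array, were left out, and no spot was saturated. A probe needed to be well above background on 2 or more arrays, and the brightest such probe stood for its gene, which gave 20227 genes; 18 of the 19 subunit probes were kept. The accession gave the name of 22951 probes and a symbol or synonym that of 9755, while 8468 kept the annotation's own name. Gene names, chromosomes and promoter sequences came from RefSeq tables (GRCm38.p6).

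Linear models were fitted over all genes with limma 3.58.1 in R 4.3.3, two-sided, at an adjusted p (Benjamini-Hochberg over all genes) under 0.05. A model of day and vector class gave both the knockdown and the day contrast, a 4-group model the interaction, and a model of day and single vector the contrast of hairpin 2 with hairpin 1. The lone control array of a day is assumed to vary like the knockdown pairs. The fit was tested on simulated data with independent noise of a common size. That simulation held no pairing by vector and no array that stood apart, so it does not cover these features of the data. The number of arrays limits the precision.

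Deviations of arrays with the same vector correlated across the days (r of 0.26 to 0.54, across genes). The vector, or its fixed place on the slide, thus pairs the arrays, and the 2 cannot be told apart. The vector was also fitted as a replicate block. That block takes the difference between hairpins out of the spread, so its p-values rest on the spread between days within a vector. The subunits, gene lists and tests were chosen with earlier results of these data known. Named were all subunits, Dazl, Suz12, and from each list of related complexes or targets any gene past the threshold and up to 4 of the largest knockdown and of the largest day difference. Of these, 1 gene is not reported here. Other alternatives were normexp background correction (offset 50), quantile normalization, no filter or a filter on all 6 arrays, and the mean of a gene's probes. Further ones were every probe as a feature, the deposited table (values under 0.05 set to 0.05), a trended robust prior and each array left out. For the contrast of hairpins, a model of the vector without the day term was also fitted.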

Additional observations from a re-analysis of the deposited data

Results flagged for a closer look

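For 5 probes of 4 subunits, 1 knockdown array was far from the other 3, by Dixon's ratio of the gap to the nearest value over the whole range of the 4 knockdown arrays. In each case it was the hairpin 2 array of day 9. The ratio was 0.9617 for Ezh1 (A_52_P237871), where that array was the highest. It was 0.8987 for Eed (A_51_P238643), 0.9355 and 0.8884 for the Mtf2 probes A_51_P264995 and A_52_P627306, and 0.9389 for the Rbbp4 probe A_52_P382731, where it was the lowest. In all, 18 probes were tested. Chance marks about 1 in 20 groups of this size, and among all genes 9.07% were marked. A cause was not tested.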

How the results depend on the processing

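No subunit passed in any of the 4 contrasts under any alternative; the lowest adjusted p was 0.195 for knockdown, 0.134 for day, 0.0694 for hairpin and 0.345 for the interaction. Over all genes, the knockdown contrast passed 0 genes as reported, 2 with normexp, 8 with the filter on all 6 arrays, 1 with the mean of the probes, 2 with a trended robust prior, 2 with every probe and 20 with the replicate block; 0 passed when any 1 array was left out. Day 12 against day 9 passed 30, then 1 with normexp, 0 without a filter, 17 with every probe and 328 with the replicate block, and 0 to 20 with 1 array left out. Hairpin 2 against hairpin 1 passed 14, then 119 with normexp, 1 with quantile normalization, 1 without a filter, 51 with the filter on all 6 arrays, 2 with the mean of the probes, 3 on the deposited table, 71 with a trended robust prior, 1 with every probe, 0 with no replicate block and 0 to 816 with 1 array left out. The interaction has no replicate block beyond its own groups, and it was not run without a control array, since a day then has no control. The block changed no call of a subunit.

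Under the scalings the split of the genes that passed moved too: for hairpins 66 of 119 were higher with normexp and 0 of 1 with quantile normalization, against 5 of 14 as reported, and for day 1 of 1 with normexp, against 24 of 30. Normexp moved the median of all genes to 0.12 for knockdown, -0.12 for day, 0.18 for hairpin and -0.11 for the interaction; relative to it 9 of 10 subunits were lower in knockdown and 9 of 10 higher at day 12. The count of subunits lower in knockdown was 8 of 10 with normexp, quantile normalization, the mean of the probes and the deposited table.

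Signs that turned belonged to differences that did not pass. For knockdown, Mtf2 had -0.15 and Rbbp4 0.0011 with the mean of the probes; with 1 array left out Eed ran from -0.28 to 0.16, Jarid2 from -0.073 to 0.048 and Mtf2 from -0.23 to 0.34. For day, Mtf2 had -0.0037 on the deposited table and Rbbp4 0.030 with normexp and 0.090 with the mean of the probes; with 1 array left out Ezh1 ran from -0.54 to 0.0058, Eed from -0.026 to 0.43, Jarid2 from -0.020 to 0.12, Mtf2 from -0.090 to 0.31, Phf1 from -0.088 to 0.0052, Rbbp7 from -0.088 to 0.30 and Suz12 from -0.15 to 0.013. For hairpin, Suz12 had -0.017 with normexp and -0.035 with the mean of the probes, and left-out ranges were -0.17 to 0.25 for Suz12, -0.80 to 0.083 for Eed and -0.24 to 0.041 for Jarid2. For the interaction, Rbbp4 had 0.086 with normexp and 0.0099 on the deposited table, Rbbp7 -0.083 with quantile normalization and Aebp2 -0.049 with normexp, and left-out ranges were -0.0034 to 0.24 for Jarid2, -0.066 to 0.10 for Phf1, -0.12 to 0.19 for Phf19, -0.056 to 0.045 for Rbbp4, -0.30 to 0.38 for Rbbp7 and -0.15 to 0.61 for Aebp2. Apart from these values, signs held for the subunits under the alternatives run, and the cause of each turn was not tested. Dazl, at an adjusted p of 0.0864, passed under 5 of 9 alternatives with all arrays.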

Other observations

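Among 21 measured of 24 listed textbook Polycomb targets of embryonic stem cells, 17 were higher and 4 lower in knockdown than in control arrays. Of all genes, 50.3% were lower. The targets had a median log2 difference of 0.39, against a median of -0.00 over all genes. Some of the lower targets were well above background on only 1 knockdown and 1 control array. No target passed in this contrast. Foxa2 (0.92, SE 0.27) and Sox17 (0.83, SE 0.28), transcription factors of endoderm, were higher in all 4 pairs; Sox7 (0.83, SE 0.66), also of endoderm, was higher in 3 of them, and Gata3 (-0.78, SE 0.28), of trophectoderm and other lineages, was lower in all 4. Foxa2, Sox17, Gata4 and Gata6 are also on the list of endoderm markers, which also had mostly higher values in the knockdown. By day, Olig2 (-0.79, SE 0.17), Gata4 (0.70, SE 0.20), Gata6 (0.40, SE 0.35) and Msx1 (-0.40, SE 0.17) had the largest differences, day 12 minus day 9, and none passed. With hairpin 2 the targets had a median of -0.55 relative to hairpin 1, with 12 of 21 lower.

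The target that passed in that contrast was Cdx2, a trophectoderm and hindgut factor. It had log2 signals of -3.62 with hairpin 2 and -1.56 with hairpin 1 at day 12, and -4.18 with hairpin 2 and -1.72 with hairpin 1 at day 9; the controls had -3.19 at day 12 and -3.33 at day 9. The log2 difference was -2.26 (SE 0.19, limma adjusted p = 0.0499), just inside the threshold, and the adjusted p ranged from 2.4e-06 to 0.247 over the alternatives. The call was lost under 6 of 9 alternatives with all arrays, and the difference was -1.08 with normexp.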
